A study of Papio hamadryas with 17 samples.

Results

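The non-coding RNA transcripts of the baboon kidney cortex were examined. They were taken as every transcript with a RefSeq identifier for a non-coding RNA (prefix XR_ or NR_) that was listed in both deposited tables and had a mean signal of at least 1 over 14 libraries, leaving out the sequence NC_018172.2. Of 17119 transcripts in both tables, 868 were non-coding, 834 of these reached the mean and 23 lay on the sequence left out, which gave 811 transcripts of 716 genes. All 811 carried the XR_ prefix of models predicted by annotation and none the NR_ prefix. The members were chosen by their mean signal over these 14 libraries, so that level is described and not tested.

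Biopsies of the kidney cortex were taken under ultrasound guidance from Papio hamadryas baboons. The 8 females had ages of 15 to 19 and the 9 males of 6 to 13, in a unit that the labels do not give. All animals ate a low-salt control chow for life and received no treatment, and the stated purpose was to compare gene networks between the sexes. RNA was sequenced from stranded libraries made after mRNA selection. Each sample is 1 animal and is named here by sex and number. Sex coincided with age and with the naming of the libraries, since the females form 1 name series and the males form 2, series A with 5 animals and series B with 4.

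Signal is the deposited value minus the 1 that had been added to it, a depth-scaled abundance that is not divided by transcript length, so levels of different transcripts show the order of signal and not of molecules. The smallest step between low values, about the worth of 1 read, was 0.0531 to 0.318, so a signal of 1 rests on roughly 3.14 to 18.8 reads. Females 1 and 2 and male 6 stood apart from the other libraries: they had a summed skeletal muscle marker signal of 65740 to 127239 against 4.0 to 31.0 in the other 14, with 4 of the 16 listed muscle genes in both tables. They are called muscle-rich below, were set apart from the values and are not a group of the study. The proximal tubule sum in these 3 was 151 to 235 against 192 to 7737 in the others, and the thick limb sum was 44.2 to 1054 against 1886 to 11783. Steps of 0.237 to 0.316 made them shallow, as was female 6 at 0.318.

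Non-coding transcripts are RNAs without an annotated open reading frame. Long non-coding RNA (lncRNA) genes are often transcribed beside or across coding genes, and some act on chromatin, splicing or their neighbours. Transcribed pseudogenes are copies of coding genes that lost their coding capacity, and many coding genes also give transcripts that lack a usable reading frame. In the kidney cortex, the proximal tubule reabsorbs most of the filtrate through transporters and the endocytic receptor megalin (LRP2), while the thick ascending limb dilutes the urine and secretes uromodulin (UMOD).

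By the annotation in the files, 310 of the 811 transcripts came from lncRNA genes, 355 were non-coding transcripts of protein-coding genes, 143 came from transcribed pseudogenes and 3 were of other kinds. Their median level over the 14 libraries was 2.34 for lncRNAs, 2.75 for transcripts of coding genes and 3.19 for pseudogenes, beside 4.20 for the 14742 coding transcripts that passed the same mean. Only 236 reached a mean of 5 and 9 a mean of 50. The 3 transcripts just above the limit had means of 1.003, 1.004 and 1.02, and the 3 just below it 0.962, 0.977 and 0.986. All 310 lncRNAs carried a LOC placeholder as their gene name, and none of the 811 bore a familiar name such as MALAT1, NEAT1, H19 or GAS5. Only names were compared, so a known lncRNA listed under a placeholder would not be recognised.

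LOC108581881 (XR_001894710.2) had the highest signal of all members and made up 39.0 to 69.4% of their summed signal, over 50% in 9 of the 14 libraries. This lncRNA lies at NC_018165.2:8597005-8603714 on the minus strand, outside coding genes. Its signal was 3433 at the lowest, 5167 at the median and 8217 at the highest of the 14 libraries, with a mean of 5595 ± 1616 (SD, n = 14). In the muscle-rich libraries it was 4328, 4051 and 3642, inside that range. All 811 transcripts together held 2.06 to 4.85% of the signal of both tables in the 14 libraries, and 1.18 to 1.74% without this transcript. In the muscle-rich libraries these shares were 1.18 to 1.51% and 0.574 to 0.707%, below every other library in both cases.

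Of the next 3 lncRNAs by level, the first lay just past a gene of a membrane protein. LOC110741871 (NC_018170.2:296988-297878, plus strand) begins 58 bases past the end of BSG on the same strand; BSG encodes basigin, a chaperone of monocarboxylate transporters. Its signal ran from 81.7 over a median of 123 to 168 in the 14 libraries, and was 136, 152 and 137 in the muscle-rich ones, within the same range. LOC103877944 (NC_018165.2:107801813-107804510, plus strand) lies 1049 bases from FXYD6, a member of a family of sodium pump regulators. It ran from 19.7 over 39.3 to 58.3 in the 14 libraries and was 0.237, 0.947 and 4.40 in females 1 and 2 and male 6, so no muscle-rich library reached the lowest of the others. LOC108587551 (NC_018160.2:38835794-38838736, minus strand) overlaps LOC101001096, annotated as stromal cell-derived factor 1, a chemokine gene, on the same strand. Its signal ran from 15.7 over 28.5 to 112.

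**Figure D1:**
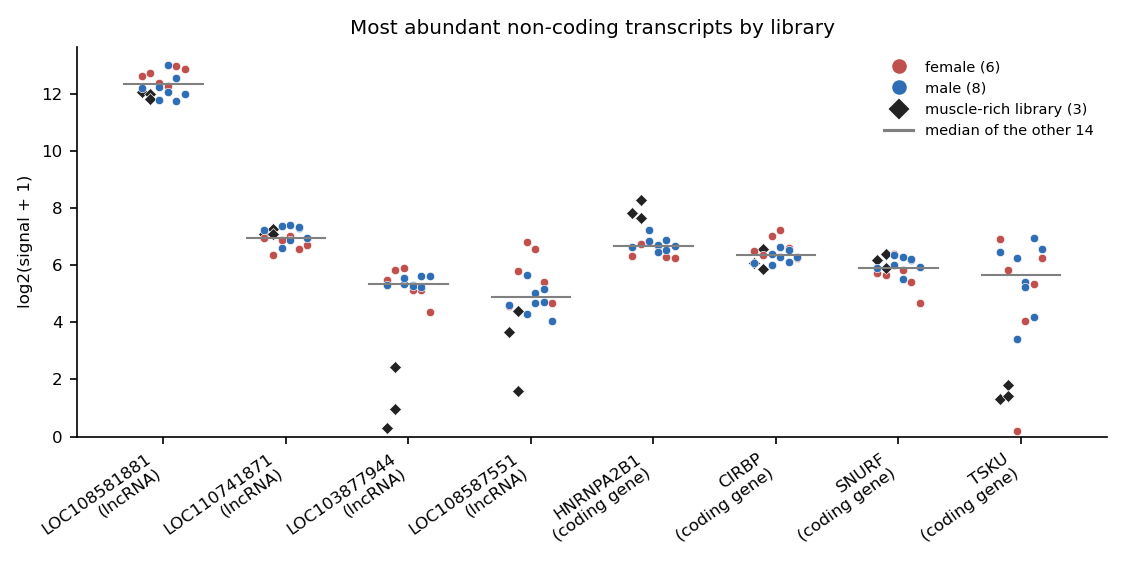
Signal of the 4 lncRNAs and the 4 non-coding transcripts of coding genes with the highest means, as log2(signal + 1), 1 point per library (females red, males blue, muscle-rich libraries black diamonds, grey bar the median of the other 14). LOC108581881 lies above all others in every library, and LOC103877944 falls below all 14 others in the 3 muscle-rich libraries.

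Among transcripts of coding genes, variants of the RNA-binding protein genes HNRNPA2B1 and CIRBP came first by level. HNRNPA2B1, which encodes a splicing factor, gave 5 of the 811 transcripts, and its variant XR_002521002.1 had a signal of 74.5 to 148 with a median of 100.4 in the 14 libraries. It was 226, 313 and 200.2 in the muscle-rich libraries, above all others. CIRBP, the cold-inducible RNA-binding protein, had its non-coding variant at 63.6 to 150 with a median of 81.6. That variant was 64.2% of the signal of all CIRBP transcripts in the median library (51.8 to 79.9%). A variant of SNURF, an upstream reading frame of the imprinted SNRPN gene, ran from 24.8 to 82.4 with a median of 59.6, and a variant of TSKU, a secreted proteoglycan, spread from 0.140 in female 3 to 124.

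For 193 non-coding variants all listed transcripts of the gene were in both tables, so a share of the gene's signal could be taken. The median share was 14.1%, with 69 variants under 10% and 23 over 50%. The non-coding variant of HOXA5, a homeobox factor, held 76.7 to 93.7% of its gene's signal in the 14 libraries, with a median of 87.2%. HMGN3, which encodes a nucleosome-binding protein, had a non-coding share of 43.3 to 67.0% there and of 12.8%, 15.1% and 21.5% in the muscle-rich libraries, so the ranges did not overlap. HM13, a signal peptide peptidase gene, went the other way, with 0.0899 to 15.4% against 51.7%, 56.6% and 21.4%. Both were picked after values were seen. Of 78 such shares in genes with a signal of at least 10, only 3 were above all others in the muscle-rich libraries and 5 below. Reads shared by variants of 1 gene are divided by the quantification, so such shares are uncertain.

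Where the transcripts lie was read from the deposited coordinates, with coding transcripts of the female table as neighbours. Of the 811, 311 belong to a gene that also has a listed coding transcript and 44 to a coding gene without one. A further 58 overlap a coding gene on the same strand and 87 on the opposite strand, of which 69 are lncRNAs. Divergent pairs, whose starts face away from each other within 5000 bases on opposite strands, number 56, and 54 of these are lncRNAs. Another 50 lie within 5000 bases in some other arrangement, 172 lie farther away and 33 sit on a sequence with no coding gene. How the quantification used strand is not given in the sources used here, so reads of antisense pairs cannot be told apart.

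Pearson r between a non-coding transcript and its coding neighbour, on log2(signal + 1) over the 14 libraries, was highest in the median for divergent pairs. It was 0.42 for 39 divergent pairs, 0.35 for 75 antisense pairs, 0.22 for 43 other pairs within 5000 bases, 0.20 for 129 farther pairs, 0.19 for 264 pairs within a gene and 0.12 for 50 overlaps on the same strand. With median scaling of the libraries these medians were 0.19, 0.19, 0.18, 0.10, 0.05 and 0.23 in the same order, so same-strand overlaps then came first. Antisense pairs came first over all 17 libraries (0.46 against 0.36 for divergent pairs) and in the 6 females (0.48 against 0.34). In the 8 males the other pairs within 5000 bases did (0.31 against 0.28). The first place of divergent pairs thus depends on the setting. All pairs share the libraries, their depth and their tissue make-up, and no test was made of the order.

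**Figure D2:**
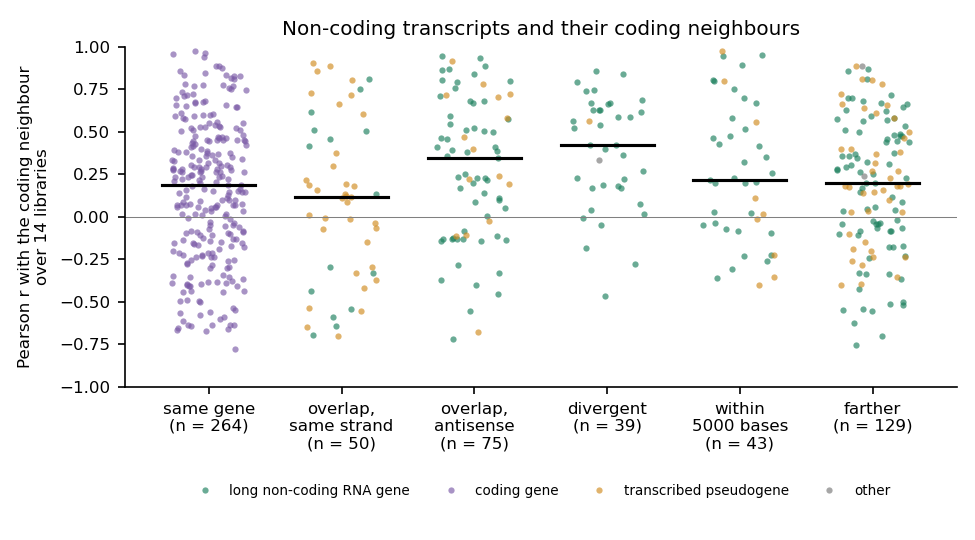
Pearson r of each non-coding transcript with its coding neighbour over 14 libraries, by position, coloured by kind of gene, with the median as a black bar. Every position spans positive and negative values. The median is highest for the 39 divergent pairs at 0.42 in this setting, and the order changes in others.

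Single pairs rose and fell closely together. LOC110740962 lies antisense to CROCC2, a gene of the rootletin family, and had r = 0.95 with it over 14 libraries (0.96 in the 6 females and 0.96 in the 8 males). LOC103884854, antisense to PDZK1IP1, a membrane protein of the proximal tubule, had r = 0.89. LOC110740854, annotated as histamine N-methyltransferase-like, lies 4771 bases from LOC101025075 on the same strand and had r = 0.98, the highest of its position. The non-coding variants of SLC22A8, an organic anion transporter of the proximal tubule, and of SLC12A3, the thiazide-sensitive cotransporter of the distal convoluted tubule, had r = 0.96 and r = 0.96 with the coding transcripts of their own genes. LOC110741871 had r = 0.89 with BSG, and LOC108586431, a pseudogene inside CXCL14, a chemokine gene, had r = 0.91 with it. These members were named for their high r, which is a description.

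A set of lncRNAs beside transcription factor genes was drawn up after values were seen, from a list of 33 nephron factors plus the HOX genes. It held 15 transcripts of 11 lncRNA genes next to 12 factor genes, 4 of them antisense, 8 divergent and 3 farther off. LOC108580602 lies antisense to HNF4A (NC_018161.2:19949013-19986013, plus strand), a factor of proximal tubule identity. Its signal ran from 0 in female 3 over 3.45 to 10.3 in the 14 libraries and was 0, 0 and 0.881 in females 1 and 2 and male 6, inside that range. Its mean over these 14 was 4.10 against 134 for HNF4A, and reads of antisense pairs cannot be told apart. It had r = 0.94 with HNF4A (0.94 in females, 0.87 in males). This was the highest of the 12 pairs in the set with an r. Their median was 0.53, with 10 positive, and the lowest was -0.24 for LOC101002857 near HOXC4.

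Divergent lncRNAs began 46 bases from HOXD1, 71 and 83 bases from EMX2, which is needed for kidney development, 290 bases from IRX3 and 314 and 409 bases from WT1, the podocyte factor. The pair at HOXD1, LOC101017537 (XR_635534.3), had r = 0.79 and did not separate the muscle-rich libraries, which were at 2.13, 8.28 and 4.29 against 5.41 to 17.2. Both transcripts at WT1 were at 0 in all 3 muscle-rich libraries, and so were LOC110744073 near GATA3, a factor of the distal nephron, and a variant of LOC101011360 divergent from POU3F3. These 4 had low means of 1.67, 1.29, 1.72 and 2.11 over the 14 libraries. In the muscle-rich libraries 1 step was 0.237 to 0.316. The WT1 transcript XR_637313.3 was also at 0 in male 1, and the POU3F3 variant in female 6 and male 4, so these 2 did not separate the libraries. Of the 15 transcripts, 6 were lower in all 3 muscle-rich libraries than in any other library, in a set drawn up after values were seen. Over all transcripts with a mean of at least 1 this held for 13.1%, and for 17.6% outside the last module of the male table, which is described below. All 15 are lncRNAs, and of the 310 lncRNAs examined here the same held for 28.7%. In a bulk sample, fewer cells of a type and less RNA per cell cannot be told apart.

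**Figure D3:**
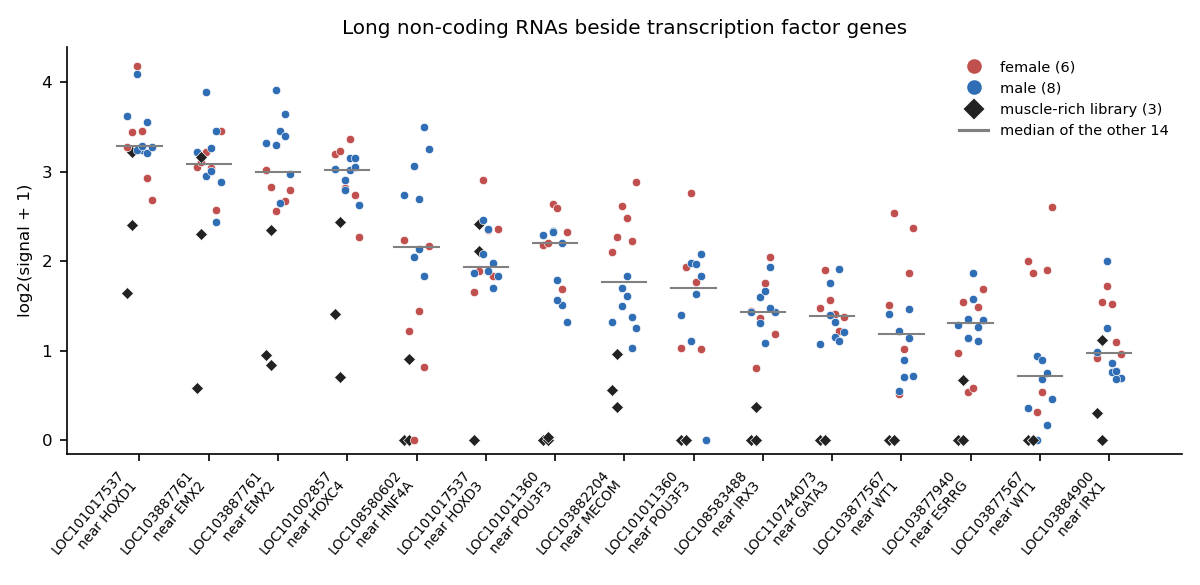
Signal of the 15 lncRNA transcripts beside transcription factor genes, as log2(signal + 1), 1 point per library (females red, males blue, muscle-rich libraries black diamonds, grey bar the median of the other 14). Both transcripts beside WT1, with means of only 1.67 and 1.29 over the other 14, are at 0 in the 3 muscle-rich libraries. LOC101017537 beside HOXD1 reaches 8.28 there, within the 5.41 to 17.2 of the others.

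Across all 811, 155 transcripts (19.1%) were lower in each muscle-rich library than in any of the 14 others. Of all transcripts with the same mean 13.1% were. A median ratio under 0.5 was found for 411 (50.7%), against 38.3% of all. By kind, 89 of 310 lncRNAs (28.7%), 45 of 355 transcripts of coding genes and 21 of 143 pseudogenes were below. In all 3 libraries 49 transcripts (6.04%) were at 0, 44 of them lncRNAs, against 1.37% of all with the same mean. Outside the last male module these shares were 6.60% and 1.83%. The rule chose transcripts by their level in the 14 other libraries, which favours this direction, and no test was made. Depth moved with this pattern: 128, 172 and 110 members were at 0 in females 1 and 2 and male 6 against 0 to 39 in the others. Female 6, of the same step, had 39. Among those with a mean of at least 5, 26 of 74 lncRNAs (35.1%) were below, against 25.5% of all transcripts of that mean outside the last male module.

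Higher levels in the muscle-rich libraries cannot be compared between kinds of transcript. Of 811, 21 were above all 14 others in all 3 libraries, 2.59% against 10.3% of all transcripts with the same mean, and all 21 were transcripts of coding genes. The male table is ordered by the authors' co-expression modules, and all 1605 transcripts above the others lie in its last module. The rows of that module read here come from protein-coding genes in 4878 of 4883 cases, with 0 of lncRNA genes and 0 of transcribed pseudogenes, against 320 and 157 in the other modules. So the count of 0 for lncRNAs and pseudogenes comes from the rows held. Outside that module, 17.6% of all transcripts, 17.3% of coding transcripts and 20.9% of non-coding ones were below the others.

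Among the 21, the widest gap was that of DUSP28, a phosphatase gene. Its non-coding variant was 40.8, 56.7 and 30.7 in the muscle-rich libraries and 0.0630 to 3.79 in the others. A variant of HNRNPA1, a splicing factor, was 13.1, 14.4 and 12.9 against 1.23 to 4.22, and 1 of FNTA, a subunit of farnesyltransferase, was 21.8, 25.1 and 17.1 against 1.08 to 8.27. In the opposite direction, 2 variants of LRRFIP1, a gene of a nucleic acid-binding protein, were among the 5 of widest gap: XR_002516361.1 was at most 0.239 against at least 6.03, and XR_002516363.1 at most 0.00028 against at least 1.79.

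Transcribed pseudogenes were set beside their parent genes where the annotation names the parent and a coding transcript of it was in both tables, which held for 29 pseudogenes of 17 parents. Reads of near-identical copies can be assigned to either, so these levels are uncertain. Pearson r with the parent over the 14 libraries ran from -0.41 to 0.96 with a median of 0.30, and 12 of 29 had r above 0.5. The highest was LOC100999533, a copy of ASS1 (argininosuccinate synthase, the enzyme that joins citrulline and aspartate for arginine synthesis), with r = 0.96. A second ASS1 copy, LOC101006383, had r = 0.94. LOC101011327 and LOC110741268, copies of the glycolytic enzyme gene ENO1, had r = 0.91 and r = 0.87, and LOC101013770, a copy of the imine deaminase gene RIDA, had r = 0.86.

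Other copies did not follow. LOC101001250 and LOC101011679, copies of the translation elongation factor EEF1A1, had r = -0.33 and r = -0.41. LOC101001250 was 7.74 and 10.4 in females 4 and 3 and 13.7 and 13.99 in males 9 and 5, and 53.3 to 140 in the other 10 of the 14 libraries, with no value between. The most abundant pseudogene, LOC100999138, a copy of the iron storage gene FTH1, ran from 70.2 over 197 to 408 and had r = 0.72. LOC101016504, a copy of PPIA, had a mean signal of 28.9, above the 18.5 of the 1 PPIA coding transcript in both tables. Any other PPIA transcripts are not in that value, and length is not taken into account on this scale.

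**Figure D4:**
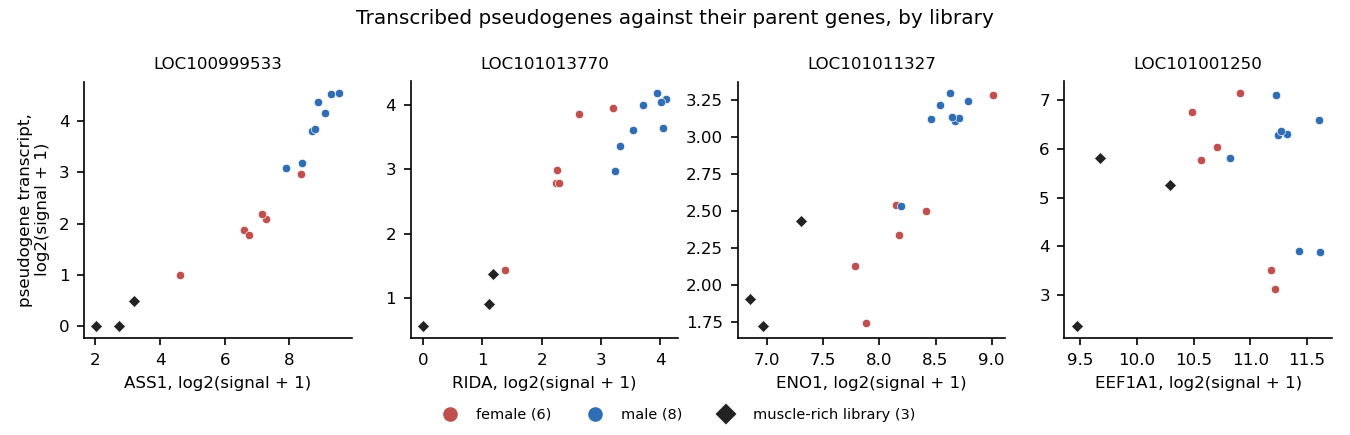
Signal of 4 transcribed pseudogenes (vertical axis) against the summed coding transcripts of the parent gene (horizontal axis), both as log2(signal + 1), 1 point per library (females red, males blue, muscle-rich libraries black diamonds). The copies of ASS1, RIDA and ENO1 rise with the parent (r = 0.96, 0.86 and 0.91 over 14 libraries), and the EEF1A1 copy falls into 2 levels (r = -0.33).

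Correlation was taken with LRP2 and with UMOD, markers of 2 nephron segments. LRP2 ran from 7.98 to 121 in the 6 females and from 134 to 294 in the 8 males outside the muscle-rich libraries, so the sexes did not overlap in it. UMOD ran from 1669 over 5248 to 11030 in these 14. The 2 markers had r = -0.39 (permutation test, p = 0.169; Spearman rho = -0.30, p = 0.304) over the 14 libraries, and 0.09 without females 3 and 4, the 2 libraries farthest from the LRP2 median, so the pooled r rests on these 2. In the 6 females alone r was -0.80 (exact permutation test, p = 0.0625; rho = -0.94, p = 0.0167) and in the 8 males -0.04 (p = 0.927; rho = -0.19, p = 0.665).

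With LRP2, 101 of 811 transcripts passed an adjusted p of 0.05 (two-sided permutation test, 100000 resamples, Benjamini-Hochberg over all 17119 transcripts), 83 positive and 18 negative. Over all transcripts 11.5% passed, 10.2% positive and 1.32% negative, and the share of members was 12.5%, near that background. The 83 comprise 44 lncRNAs, 21 transcripts of coding genes, 17 pseudogenes and 1 other. With values centred within each sex 10 passed against 1.24% of all transcripts. Neither the 6 females nor the 8 males alone gave a call among the members, with 123 and 98 at an unadjusted p under 0.05 (exact permutation test). Over all 17119 transcripts 2134 and 2846 were. With 6 females the smallest p is 0.00139 and no transcript at all passed, and in the males 0.0993% of all did, so these counts say little. The 101 were chosen by r over these same libraries, which favours agreement within them, and the next counts of them were not taken over all transcripts. Of the 101, 88 had the same sign in both sexes alone and 56 still passed without females 3 and 4. In that setting 139 members (17.1%) passed against 26.2% of all transcripts, and by Spearman 142 (17.5%) against 25.5%, so there the members' share was below the background. Over all 17 libraries 33.9% of members passed against 37.4% of all. With median scaling 90 passed against 9.81% of all, 47 positive (6.19% of all) and 43 negative (3.62% of all). In the male modules other than the last, 97 of 742 passed, against 13.9% of all transcripts there.

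LOC101017493, a lncRNA 76752 bases from KIAA0513, had the highest r among transcripts with a mean of at least 5, r = 0.94 (permutation test, adjusted p = 0.000533; rho = 0.92). Its p of 1e-05 is the smallest these permutations can give, for r and for rho. It had r = 0.94 in females, 0.67 in males and 0.84 without the 2 libraries. The ASS1 copy LOC100999533 had r = 0.91 (adjusted p = 0.000533; rho = 0.98), 0.90 in females and 0.85 in males, and 0.95 without the 2 libraries. Its signal was 1.004 in female 3 and 22.3 in male 7, the libraries of lowest and highest LRP2. The RIDA copy LOC101013770 had r = 0.90 (adjusted p = 0.00423) and LOC103885904, a lncRNA 55582 bases from the stress gene GADD45A, r = 0.90 (adjusted p = 0.00114). The HNF4A antisense transcript LOC108580602 had r = 0.91 (adjusted p = 0.000856; 0.90 in females, 0.83 in males).

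Opposite to LRP2 ran LOC108587551, inside the stromal cell-derived factor 1 gene, with r = -0.85 (permutation test, adjusted p = 0.00293; rho = -0.76, p = 0.0024). It had r = -0.88 in females, -0.61 in males and -0.65 without the 2 libraries, where it did not pass (adjusted p = 0.0738), and r = 0.69 with UMOD (adjusted p = 0.174). LOC108583230, a pseudogene inside MLLT1, a transcription elongation gene, had r = -0.84 (adjusted p = 0.000856). The variants of GET4, which guides tail-anchored proteins to membranes, and of CIRBP had r = -0.84 and r = -0.80 (adjusted p = 0.00254 and 0.02). GET4 did not pass with median scaling (adjusted p = 0.102), nor CIRBP without the 2 libraries (adjusted p = 0.102). LOC103882204, antisense to MECOM, a zinc finger factor, had r = -0.77 (adjusted p = 0.00988).

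With UMOD 4 of 811 transcripts passed, all positive, against 0.321% of all transcripts; the 4 are named because they are few. LOC101000989, a lncRNA 184413 bases from PHYHIPL, had r = 0.91 (permutation test, adjusted p = 0.0201; rho = 0.89, p = 7e-05), 0.91 in females, 0.95 in males and 0.86 without females 6 and 3, the libraries farthest from the UMOD median. The variant of LOC101011360 divergent from POU3F3, a factor of the thick limb and distal tubule, had r = 0.89 (adjusted p = 0.0233). LOC101027024 is a copy of TSR2 and lies antisense within EGF, a growth factor gene of the distal nephron, and had r = 0.86 with UMOD (adjusted p = 0.0306) and 0.71 with EGF; its call was lost in 9 of 14 fits that left out 1 library (adjusted p = 0.0503 to 0.144). LOC103884764, 20270 bases from SH3RF1, had r = 0.85 (adjusted p = 0.0436).

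All 4 had positive r in each sex, with 0.90 to 0.99 in females and 0.75 to 0.95 in males. They were chosen by r over these same libraries, which favours this. Without females 6 and 3 none of the 811 passed the permutation test, against 0.035% of all transcripts, and r of the 4 was 0.71 to 0.86. An unadjusted p under 0.05 was found there for 68 of the 811 and for 908 of all 17119. By Spearman 2 passed against 0.222% of all, and over all 17 libraries 263 (32.4%) against 36.4%. Within-sex centring left 1 call against 0.234% of all transcripts, and median scaling gave 11 against 0.94%. Outside the last module 4 of 742 passed against 0.368% of all. In the opposite direction no member passed over the 14 libraries. Among those with a mean of at least 5, the 4 lowest r were those of a variant of WDR6, a WD repeat gene, at -0.82 (adjusted p = 0.0722), of LOC110741815 at -0.74 (adjusted p = 0.141), of LOC103887754 at -0.70 (adjusted p = 0.185) and of a variant of AMN, the partner of cubilin in the proximal tubule, at -0.70 (adjusted p = 0.174).

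**Figure D5:**
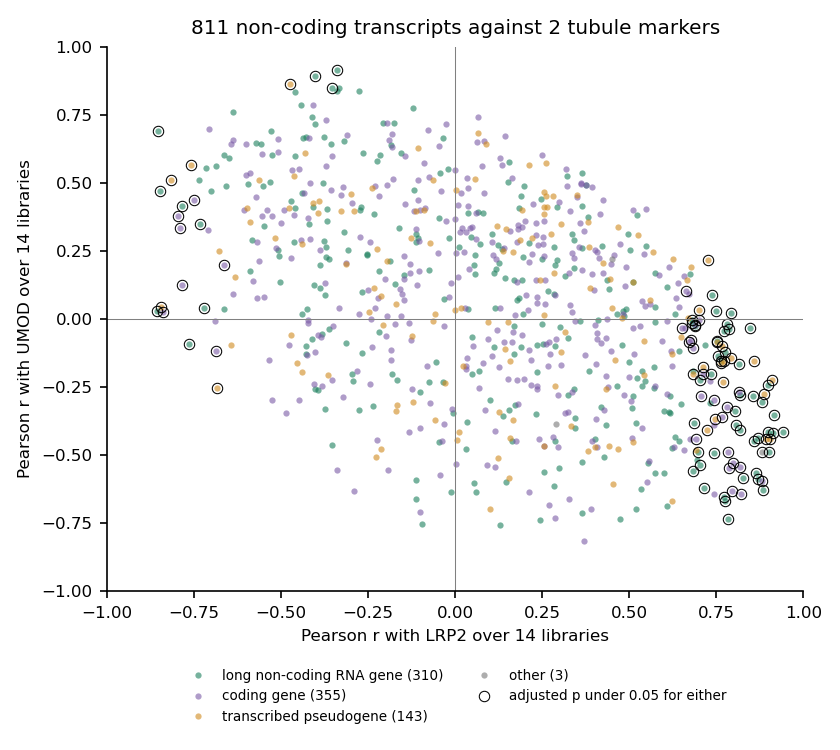
Pearson r with LRP2 (horizontal) and with UMOD (vertical) over 14 libraries for each of the 811 transcripts, coloured by kind of gene, with rings at an adjusted p under 0.05 for either marker. The ringed points gather at the right (83 positive with LRP2) and left edges, and 4 lie at the top.

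Between the sexes, 53 of 811 transcripts differed (limma on log2(signal + 1), 8 females against 9 males, Benjamini-Hochberg adjusted p under 0.05 over all 17119), 51 higher in males and 2 in females. Over all transcripts 7.45% differed, 7.14% higher in males and 0.304% in females, so the members' 6.54% lay near the background. Outside the last module 52 of 742 differed, against 9.62% of all there. The median log2 difference, female minus male, was -0.25 over all transcripts and -0.22 over the members, a general shift that changes with the scaling. With median scaling 14 members differed against 2.04% of all transcripts, 12 higher in males (1.62% of all) and 2 in females (0.415% of all). Without the muscle-rich libraries 147 differed against 25.0% of all, 123 higher in males (23.2% of all) and 24 in females (1.85% of all), and all 53 were among them. With median scaling of those 14 libraries the split turned, with 113 calls against 17.0% of all, 52 higher in males (10.3% of all) and 61 in females (6.64% of all).

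Sex cannot be told apart from age or name series here, nor from the level of LRP2, which did not overlap between the sexes outside the muscle-rich libraries. Of the 53, 32 also passed with LRP2, 31 of them positive. The same overlap was not counted over all transcripts. With age as a term limma called no member, against 0.00584% of all transcripts. The unadjusted p was under 0.05 for 43 of the 811 and for 1079 of all 17119, and 34 of the 53 kept their sign. Against the females, males of series A gave 27 calls (3.67% of all transcripts) and males of series B 1 (0.0584% of all). The only muscle-rich male belongs to series B, and muscle-rich females were in both fits. Leaving out that male alone from the main fit gave 117 calls among the members in place of 53. The counts of the series therefore cannot be read as a difference between the series. Of the 811 members, 3 (0.37%) had no overlap between females and males, against 0.508% of all transcripts.

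The ASS1 copies were among the largest differences. LOC100999533 was 0 at the lowest, 2.54 at the median and 6.86 at the highest of the 8 females, and 0.413, 13.4 and 22.3 in the 9 males. The females 1 and 2 and male 6, all muscle-rich, were the lowest of their sex. The log2 difference was -2.07 ± 0.53 (SE; limma, adjusted p = 0.0254), and -1.95 without these libraries (adjusted p = 0.000739). LOC101006383 differed by -2.07 ± 0.58 (adjusted p = 0.0359). Neither call held with median scaling (limma, adjusted p = 0.0763 and 0.1), upper quartile scaling (0.0802 and 0.102) or a pseudocount of 0.1 (0.0647 and 0.0597). The first was lost without male 4, 7 or 9 (0.051 to 0.057) and the second in 10 of 17 fits that left out 1 library (0.0518 to 0.078). With age as a term the differences turned to 1.07 and 0.87 (adjusted p = 0.752 and 0.828), and with age but without the muscle-rich libraries they were -1.31 and -1.41 (0.929 and 0.951).

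A variant of GNG10, a G protein subunit, was 0 to 4.93 with a median of 0.345 in females and 0.436 to 27.1 with a median of 17.0 in males, a log2 difference of -2.61 ± 0.59 (limma, adjusted p = 0.0158). LOC103881627, a lncRNA on the unplaced sequence NW_018811756.1:92-1513, was 0 to 1.22 in females and 0 to 19.0 in males, with -2.54 ± 0.53 (adjusted p = 0.0119). The HNF4A antisense transcript differed by -1.48 ± 0.40 (adjusted p = 0.0328), which did not hold with median scaling (adjusted p = 0.107). Both transcripts higher in females were variants of coding genes. That of KLHL25, an adaptor of a ubiquitin ligase, was 2.54 to 7.03 in females and 0.122 to 2.81 in males, with 1.05 ± 0.25 (adjusted p = 0.0182), and that of RSRP1, an arginine- and serine-rich protein gene, differed by 1.60 ± 0.47 (adjusted p = 0.0473). That of RSRP1 was lost with median scaling (adjusted p = 0.0581) and in 12 of 17 fits that left out 1 library (0.053 to 0.0961).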

How the data were processed

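The 2 tables, 1 of females and 1 of males, hold values that the authors deposited as a normalized signal per transcript with 1 added; the unit was read from the values, and Partek is named per the submitters' processing notes. The aligner and quantification settings are not stated in these sources, nor is a genome build, and whole reads could not be recovered, so no count test was run. The females' file has 26644 transcripts; that of the males has 17119 complete rows, all also in the females' file, and 1 incomplete row, which was left out. Rows were joined by identifier, 1 was subtracted, and tests used log2(signal + 1) with limma 3.58.1 in R 4.3.3 (mean-variance trend) or permutations in Python 3.11.15 with numpy 2.4.6. Both were tested on simulated data. Replicate numbers follow the order of the samples and pair nothing; each sample is a separate animal.

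The members and lists were chosen with earlier results of these data known. Named transcripts are the 4 lncRNAs and 4 variants of coding genes of highest mean; the 4 highest and 4 lowest r with each marker and the 2 highest r with a neighbour per position, at a mean of at least 5; the 5 widest gaps each way between the muscle-rich and other libraries (0.1 added); up to 4 sex differences each way; and the 3 on each side of the limit. LncRNAs beside factor genes, the 4 transcripts called with UMOD, transcripts with a described share of their gene and pseudogene parents were chosen after values were seen. No sequences are shown.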

Additional observations from a re-analysis of the deposited data

Results flagged for a closer look

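Within each sex, the extreme library was set against the others for each named transcript and 2 library summaries. Of 96 such sets 18 had a highest or lowest library far from the rest. Chance gives about 1 in 20, but several transcripts were named for their gap between the muscle-rich and other libraries, which makes male 6 extreme by choice, so the count is not read against that rate. Male 6 accounted for 12. It was high among males for DUSP28 at 30.7, HNRNPA2B1 (XR_644961.1) at 22.4, FNTA at 17.1, HNRNPA1 at 12.9, GET4 at 8.96 and CYSTM1 at 4.64. It was low for LOC103877944 at 4.40, LOC103886327 at 0.587, LRRFIP1 (XR_002516363.1) at 0.00028, LOC103881556 at 3e-05 and LOC103881768 at 0, and 110 members were at 0 in it.

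Among females, female 3 was high for LOC110741275 at 54.3 and LOC110740962 at 17.0. Female 6 was high for GNG10 at 4.93 and LOC103884854 at 11.2. Female 7 was high for LOC103881627 at 1.22 and the SLC12A3 variant at 9.27.

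The female table also holds non-coding transcripts with no row read in the male table. Of 472 with a mean signal of at least 1 over the 6 other females, 184 were higher in both females 1 and 2 than in any of those 6, among them 49 of 157 lncRNAs and 96 of 167 pseudogenes. Of the 714 held in both tables, 69 were, with 13 of 272 lncRNAs. The male rows read end within the last module, which holds all 1605 transcripts above the others. The set without a male row therefore favours transcripts high in females 1 and 2. The share over all transcripts of the female table was not counted, so these counts are not read as a trait of non-coding RNAs.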

How the results depend on the processing

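No paired analysis was possible because the labels give no replicate numbers that tie females to males. The count of sex differences among the members (53) was 147 without the muscle-rich libraries, 31 with a pseudocount of 0.1, 14 with median scaling, 17 with upper quartile scaling, 27 and 1 against males of series A and B, and 0 with age as a term. Combinations chosen after seeing the data, without the muscle-rich libraries, gave 113 with median scaling and 0 with age. Over all transcripts the count (1275) was 4283, 349, 363, 629, 10 and 1 under these settings in order, leaving out the pseudocount, and 2905 and 1 in the combinations. Leaving out 1 library gave 24 to 117 among the members and 537 to 2888 over all, the lowest without male 9 and the highest without male 6; without female 8 and males 4, 5, 7 and 8 the members' count was 35, 31, 34, 31 and 35, and these same libraries moved the count over all.

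Calls with LRP2 (101) were 142 by Spearman, 275 over all 17 libraries (37.4% of all transcripts passed there, and 36.4% with UMOD), 10 within sex and 0 in either sex alone, and 71 to 124 with 1 library left out. Calls with UMOD (4) were 263 over 17 libraries, 2 by Spearman, 11 with median scaling, 1 within sex, 0 in either sex alone and 0 without the 2 farthest libraries, and 0 to 7 with 1 library left out. They were 0 without female 3 or female 6, 1 without female 4 or 7, 2 without female 5 or males 1, 2 or 5, and 7 without female 8 or male 4. Over 17 libraries r with LRP2 turned to 0.20 for LOC108587551 and 0.0535 for LOC108583230. With age as a term the log2 differences of LOC101006383 and LOC100999533 turned to 0.87 and 1.07. When the muscle-rich libraries were also left out these were -1.41 and -1.31, and that of RSRP1 turned to -0.041. Chosen after seeing the data, a mean of at least 5 gave 61 of 236 members below in the muscle-rich libraries (25.8%), against 155 of 811 (19.1%). Neighbours within 5000 bases fell from 50 to 25 with 1000 bases, variants of coding genes without a coding transcript rose from 44 to 91 with neighbours in both tables, and a mean of 2 left 519 of 811 members. Depth limits low levels most, since a signal of 1 rests on about 3.14 reads in the shallowest library.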
